A study of Mus musculus with 2 samples.

Results

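The NKT-like T cells described here were cells that carried RNA of the T cell receptor complex together with RNA of Zbtb16 or Klrb1c, in single-cell RNA-Seq of tumor-bearing mouse liver. A cell was a member if it had between 500 and 5000 detected genes, no more than 10% of its UMIs (unique molecular identifiers, 1 for each captured transcript) from mitochondrial genes, UMIs of at least 2 of the 5 genes Cd3d, Cd3e, Cd3g, Trac and Trbc2, and a UMI of Zbtb16 or Klrb1c. It also had to lack any UMI of Trdc, Cd8a, Cd8b1, Foxp3, Ncr1, Klre1, Cd79a and C1qa, which mark gamma-delta T cells, CD8 T cells, regulatory T cells, NK cells, B cells and macrophages. This gate took 432 cells, 292 from the PBS library and 140 from the anti–PD-1 library, out of 31891 cells that passed the limits on genes and mitochondrial UMIs. Because these measured values chose the cells, the levels of the gate genes in them are a description and not a result.

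Both libraries came from mice with N-AKT cholangiocarcinoma (CCA), made by hydrodynamic injection of plasmids for the Notch intracellular domain (NICD) and myristoylated AKT into the tail vein, which reaches hepatocytes. Both carried shYT, that is, doxycycline-inducible shRNAs that target Yap1 and Wwtr1, which encode YAP and TAZ, driven through a ubiquitous CAG-rtTA3 allele, so that immune cells could express the shRNA as well as tumor cells, and a library without knockdown was not compared here. In both groups shRNA expression was started on day 25 and day 33 was the endpoint. The anti–PD-1 group received an antibody to mouse PD-1 (clone RMP1-14) intraperitoneally on days 26, 29 and 32. The other group was treated with PBS, for which the sources used here give no days or route. Whole tumor-bearing liver was dissociated without a sort, and the labels give neither the number, sex nor age of the animals nor the shRNA line. The study used mice of both sexes and gives an n of several per group for this experiment, but no map from cells to animals was used here. Each group is therefore 1 library, and no difference between the groups could be tested. Intervals are exact Poisson or binomial intervals at 95%, or were built from these, and cover counting error only. The spread between mice and between preparations is not in them.

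NKT cells are T cells that read lipid antigens presented by CD1d, and most in the mouse use an invariant receptor alpha chain that joins the segments Trav11 and Traj18. Zbtb16 encodes PLZF, the transcription factor that installs their innate-like program, and Klrb1c encodes NK1.1, a lectin-like receptor that they share with NK cells. They are abundant in mouse liver, where they patrol sinusoids and hold Cxcr6, and on activation they release interferon-gamma, IL-4 or IL-17 within hours, depending on the subset. PLZF and NK1.1 also occur in other innate-like T cells, among them gamma-delta T cells and NK1.1+ T cells with diverse receptors. Zbtb16 lies on the minus strand at chr9:48654297-48836222 and Klrb1c on the minus strand at chr6:128778485-128789215 (GRCm38).

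By the gate, the members held T cell receptor RNA, but they had almost none of the RNA that would identify the invariant receptor. Yap1 had 0 and 1 UMIs and Wwtr1 5 and 1 UMIs in PBS and anti–PD-1 members, too few to check the knockdown in these cells. A Trac or Trbc UMI was found in 99.3% of members of each library, and both Trac and Trbc UMIs in 76.7% (PBS) and 82.1% (anti–PD-1). Trac and Trbc2 are genes of the gate, so these shares are a description and not a result. Traj18, on the plus strand at chr14:54200777-54200842, had 0 UMIs in the members of both libraries, and Trav11, at chr14:53519303-53519859, had 2 UMIs in each. The count of 0 limits the share of cells with a UMI, not the share of cells that carry the segment. The label NKT-like therefore rested on Zbtb16, Klrb1c, Cd3e and Trac, and the cells are not called invariant NKT cells. Both segments are shown because they are what sets the invariant receptor apart, in their germline form from GENCODE vM21. Capitals mark the codons of the Phe-Gly-X-Gly motif of Traj18 and of the Tyr-X-Cys motif in the last 100 of the 343 bases of Trav11.
Traj18: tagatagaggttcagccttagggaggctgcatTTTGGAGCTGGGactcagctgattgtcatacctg
Trav11: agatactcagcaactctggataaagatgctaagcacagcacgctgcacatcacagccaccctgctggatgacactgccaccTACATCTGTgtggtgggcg

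RNA of the gamma chain constant genes was present beside that of the alpha chain. A Trgc UMI was found in 176 PBS members (60.3%) and 81 anti–PD-1 members (57.9%), and 73.9% and 85.2% of these also had both Trac and Trbc UMIs. Trac stood at 764 and 875 CPM (UMIs of the gene per 1000000 UMIs, summed over the cells of a set in a library) in members with a Trgc UMI, at 763 and 866 CPM in other T cells, and at 158 and 355 CPM in T cells with a Trdc UMI. Trac and Trdc were both part of the gate, so these levels are a description and do not show which receptor the cells carried. Members with a Trgc UMI and no Trac UMI made up 14.4% and 7.86%. Trgc4 was at 221 and 174 CPM in members, against 61.2 and 29.1 CPM in other T cells. Trgc1 was at 213 and 124 CPM against 71.7 and 38.5 CPM, and Trgc2 at 250 and 320 CPM against 85.9 and 53.2 CPM. Of 4 gamma-delta markers with enough UMIs 3 were at least 2-fold higher in members in both libraries and 0 lower. Which receptor these cells carried was not tested. Counts of those Trgc genes that are near-identical copies may be split between them.

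Members were a smaller share of T cells in the anti–PD-1 library. Of the cells with UMIs of at least 2 of the 5 T cell genes, 7.25% (6.47 to 8.10, 292 of 4025) were members in the PBS library and 2.92% (2.46 to 3.44, 140 of 4794) in the anti–PD-1 library, a difference of −4.33 points (−5.29 to −3.41). With each cell thinned to 1000 UMIs the shares were 6.37% and 3.18%. The gate itself removed more T cells in the anti–PD-1 library: 33.1% and 46.9% of T cells had a C1qa UMI and 2.68% and 11.9% a Cd79a UMI, genes of macrophages and B cells. Among T cells with none of the 8 excluded genes, members were 20.6% of 1416 cells and 12.9% of 1085 cells. The member share was lower in the anti–PD-1 library by each of these counts. T cells with a Zbtb16 or Klrb1c UMI that the excluded genes removed were 11.7% and 11.9% of T cells (469 and 572 cells). The difference was 0.28 points (−1.08 to 1.63). Those with exactly 1 of the 8 genes were 5.86% and 4.23% of T cells, a difference of −1.63 points (−2.57 to −0.71). How much of the gap came from the exclusion was not tested. With C1qa and Cd79a left out of the gate the member share was 10.5% and 5.57%.

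The libraries lay further apart in Zbtb16 than in Klrb1c. A Zbtb16 UMI was found in 6.66% and 2.90% of T cells (2.65% and 0.788% when thinned), and a Klrb1c UMI in 14.4% and 13.3% (6.90% and 6.0% when thinned). Neutrophils here were cells with UMIs of 3 or more of 6 neutrophil markers. They had a Zbtb16 UMI in 3.85% and 3.64% of cells (1.96% and 0.999% when thinned). The thinned Zbtb16 share was thus lower in the anti–PD-1 library in neutrophils as well. A Klrb1c UMI was found in 1.82% and 4.68% of neutrophils (0.832% and 1.62% when thinned). B cells had a Zbtb16 UMI in 1.17% and 1.26% and a Klrb1c UMI in 1.57% and 3.39%. Neutrophils with no UMI of the 5 T cell genes had a Zbtb16 UMI in 3.70% and 3.66% of cells and a Klrb1c UMI in 0.754% and 2.66%, at a median of 1723 and 2546 UMIs per cell. The Zbtb16 share of anti–PD-1 T cells was thus below that of neutrophils, also when thinned (0.788% against 0.999%), and above that of B cells (0.309%). Whether the neutrophil share is free RNA or RNA of the neutrophils was not tested, so the Zbtb16 share of anti–PD-1 T cells is not read as expression. The Klrb1c shares of T cells lay above those of neutrophils and B cells in both libraries.

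**Figure D1:**
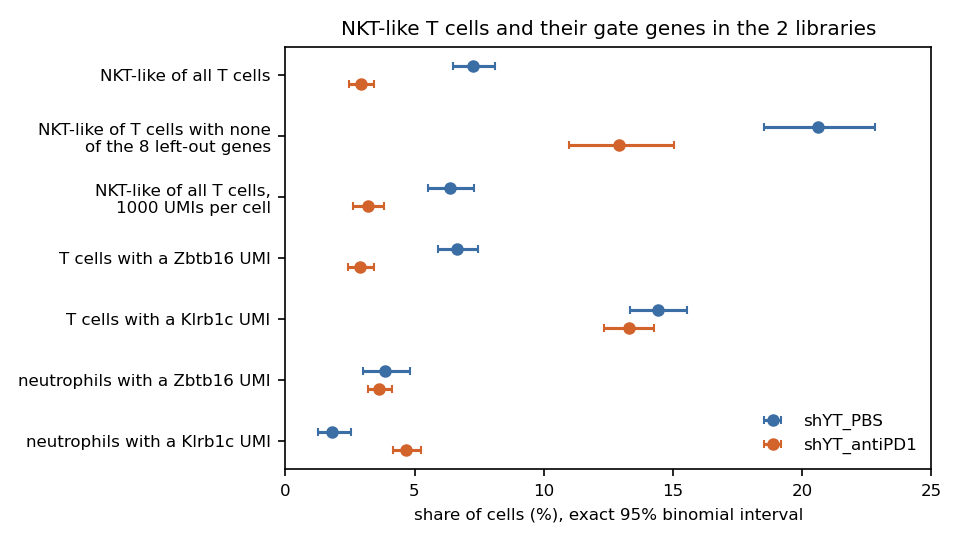
Share of cells in percent (horizontal axis, with exact 95% binomial intervals) that were NKT-like or had a UMI of a gate gene, in the PBS and the anti–PD-1 library. The member share is 7.25% against 2.92%, the Zbtb16 share of T cells is 6.66% against 2.90%, and the Klrb1c shares of T cells overlap.

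Members were split by the gate gene that admitted them. Zbtb16 alone admitted 83 PBS members (28.4%) and 17 anti–PD-1 members (12.1%), Klrb1c alone 170 (58.2%) and 100 (71.4%), and both genes 39 (13.4%) and 23 (16.4%). A single UMI of the pair sufficed for 57.2% and 51.4% of members, which is the edge of the gate. All 5 T cell genes were detected in 41.8% and 52.1% of members. Members had a median of 2653 and 3156.5 UMIs and 1355 and 1438 detected genes per cell, against 2415.5 and 2796 UMIs in other T cells, which are T cells that met the same rule but had neither a Zbtb16 nor a Klrb1c UMI (1124 and 945 cells). Of 219 barcodes present in both libraries, 4 belonged to a member in at least 1 library and 0 to a member in both. Among members, 102 (34.9%) of the PBS library had Xist and no Y-linked UMI and 49 (16.8%) the reverse, against 0 and 75 (53.6%) of the anti–PD-1 members. The libraries therefore differed in sex as well as in treatment. Within cells that had Y-linked and no Xist UMIs, members were 11.4% and 2.77% of T cells (49 and 75 members), and values in these cells are given beside many of the results below as values within 1 sex.

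**Figure D2:**
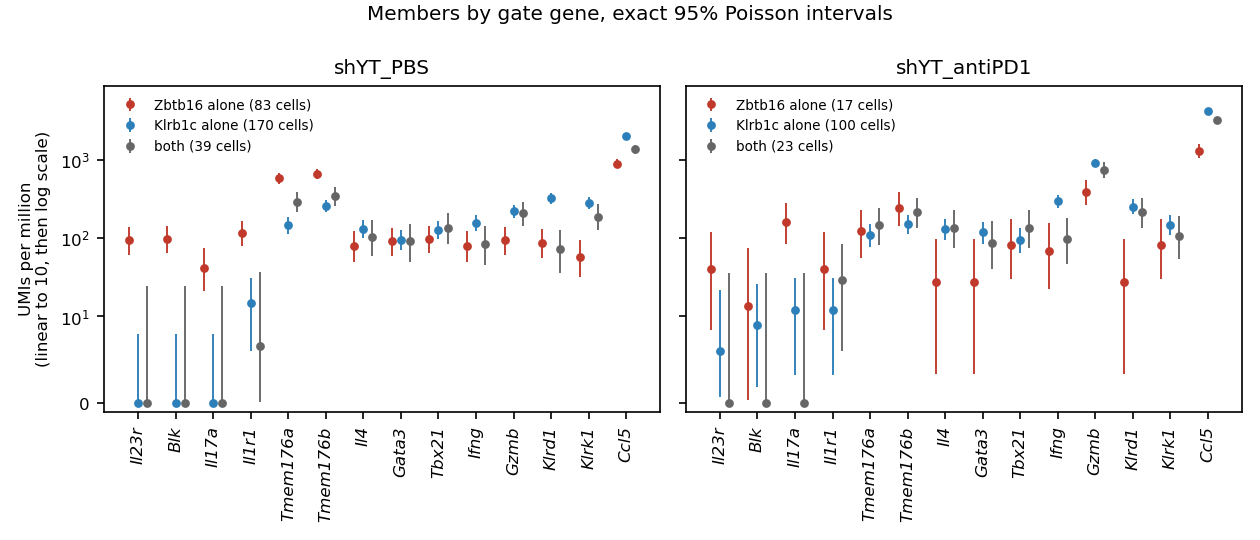
Levels in CPM (vertical axis, linear to 10 and logarithmic above, exact 95% Poisson intervals) of selected genes in members admitted by Zbtb16 alone, Klrb1c alone or both, in each library. In the PBS library Blk stands at 99.8 and Il23r at 95.9 in the Zbtb16-alone cells and at 0 in the Klrb1c-alone cells.

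The arms differed in the genes they held. In the PBS library, the 11 type 17 genes, those of IL-17-producing T cells, summed to 2080 CPM in the Zbtb16-alone members (542 UMIs), 577 CPM in the Klrb1c-alone members (269 UMIs) and 907 CPM in the double members (138 UMIs), against 737 CPM in other T cells. The genes named next were chosen after their values were seen. Il23r, the receptor for IL-23, was at 95.9, 0 and 0 CPM in the Zbtb16-alone, Klrb1c-alone and double members, and Blk, a Src-family kinase, at 99.8, 0 and 0 CPM. The cytotoxic and NK receptor genes lay the other way. Klrd1 (CD94) was at 88.3, 331 and 72.3 CPM, Klrk1 (NKG2D) at 57.6, 288 and 191 CPM, and Gzmb (granzyme B) at 95.9, 223 and 210 CPM. Il2rb, the receptor chain shared by IL-2 and IL-15, was at 875, 1709 and 1499 CPM, and Il7r at 986, 515 and 342 CPM. Because the anti–PD-1 library had 17 Zbtb16-alone cells, the arms were not compared between libraries gene by gene.

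Members carried genes of the type 1 (interferon-gamma) program more often than other T cells. The 14 type 1 genes summed to 6049 and 9233 CPM in members, below the 12222 and 12071 CPM of CD8 T cells and the 18385 and 23070 CPM of NK lineage cells, and above the 3599 and 5157 CPM of other T cells. They stood at 7517 and 10400 CPM in Klrb1c-alone members and 5561 and 9379 CPM in double members, but at 3711 and 3734 CPM in Zbtb16-alone members, so the excess over other T cells lay in the members with a Klrb1c UMI. Ifng itself had a UMI in 20.5% and 26.4% of members, a share that was not set against other cells here. Thinned to 1000 UMIs, 85.8% and 87.7% of members had UMIs of at least 2 of 14 type 1 genes, against 51.6% and 49.2% of other T cells. Type 2 genes reached the same mark in 17.7% and 25.4%, type 17 genes in 17.4% and 9.42%, and 4.51% and 6.52% of members had none of the 3 programs, against 33.8% and 37.3% of other T cells. Cxcr6, the liver homing receptor for CXCL16, had a UMI in 75% and 70.0% of members (44.8% and 39.1% when thinned), and in 35.0% and 26.1% of other T cells. Il4 had a UMI in 23.3% and 22.1% of members (13.5% and 11.6% when thinned), against 7.03% and 4.97% of other T cells. UMIs of both Il4 and Ifng occurred in 18 (6.16%) and 7 members.

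NK receptor genes were higher in the members than in other T cells, though less so in PBS members without a Klrb1c UMI. Klrb1c, a gate gene, is itself an NK receptor gene, and other T cells lack it by definition. With gate genes left out, the list summed in the PBS library to 2971 CPM in Klrb1c-alone, 2301 CPM in double and 1615 CPM in Zbtb16-alone members. Other T cells stood at 1231 CPM. In the anti–PD-1 library these were 3350, 2777, 3269 and 1710 CPM. Of its 17 Zbtb16-alone cells, 9 had UMIs of 3 or more neutrophil markers. The part of neutrophil RNA in their sum was not tested. Leaving out genes of the gates, 54 of 11196 genes with enough UMIs (0.482%) were at least 2-fold higher in members in both libraries and 119 (1.06%) at least 2-fold lower, after adding 5 CPM to each level. Of 17 NK receptor and adaptor genes, 10 were among those higher and 0 among those lower, as were 5 and 0 of 14 type 1 genes. Of 12 cytotoxic genes 1 was higher, Gzmb, and 1 lower, Gzmk, another granzyme. Klrk1 was at 203 CPM in members and 61.8 CPM in other T cells of the PBS library, and at 132 and 22.5 CPM in the anti–PD-1 library (log2 ratios 1.63 and 2.32). Klrd1 was at 214 against 71.1 CPM and 215 against 66.0 CPM (1.52 and 1.63). Gzmb was at 183 against 58.2 CPM and 813 against 137 CPM (1.57 and 2.53). The cytokine gene Il4 was at 113 against 35.4 CPM and 118 against 27.4 CPM (1.54 and 1.93). Cd160 (1.68 and 1.52), Klrc1 (1.49 and 2.46), Il12rb2, a chain of the IL-12 receptor (1.75 and 1.47), and Ccr2, a chemokine receptor of inflamed tissue (1.41 and 1.61), were also higher on the log2 scale, as was Trgc4 (1.77 and 2.39).

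Checkpoint genes, which chronically stimulated T cells hold, were more often lower than higher in the members. Of 15 checkpoint genes 7 were at least 2-fold lower in both libraries and 1 higher, Cd160. Of 12 naive and central memory genes 3 were lower, Ccr7 and S1pr1 among them, and 1 higher, Ccr9. The genes given with values were chosen after these were seen. Ccr7, which guides T cells to lymph nodes, was at 5.69 against 98.2 CPM in the PBS library and 39.5 against 345 CPM in the anti–PD-1 library (log2 ratios −3.27 and −2.98). Pdcd1, the gene of PD-1 itself, was at 18.2 against 142 CPM and 23.7 against 117 CPM (−2.66 and −2.09). Tnfrsf4 (OX40), a costimulatory receptor, was at 23.9 against 224 CPM and 49.3 against 322 CPM (−2.99 and −2.59). Thinned to 1000 UMIs, 0.694% and 0.725% of members had a Pdcd1 UMI (3.77% and 6.43% with all UMIs), against 0.832% and 1.47% of neutrophils (2.20% and 5.08%). With all UMIs these were 11 and 9 members, and the neutrophils included cells with UMIs of the T cell genes. Pdcd1 in the members is therefore not read as expression. Whether its UMIs are free RNA was not tested. Against CD8 T cells (732 and 793 cells), where 1.15% of genes were at least 2-fold higher in members in both libraries and 0.972% lower, members were lower for Gzmk (−3.83 and −3.74) and Gzma (−3.74 and −2.37). Against NK lineage cells (388 and 417 cells, 1.06% of genes higher and 2.41% lower) they were lower for Gzma (−5.62 and −5.44), a granule protease, and for Prf1, the pore protein of killer cells, at 42.1 against 371 CPM and 37.5 against 489 CPM. Il4, at 113 and 118 CPM in members, was at 0.788 and 6.12 CPM in CD8 T cells and at 0 and 0.731 CPM in NK lineage cells.

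**Figure D3:**
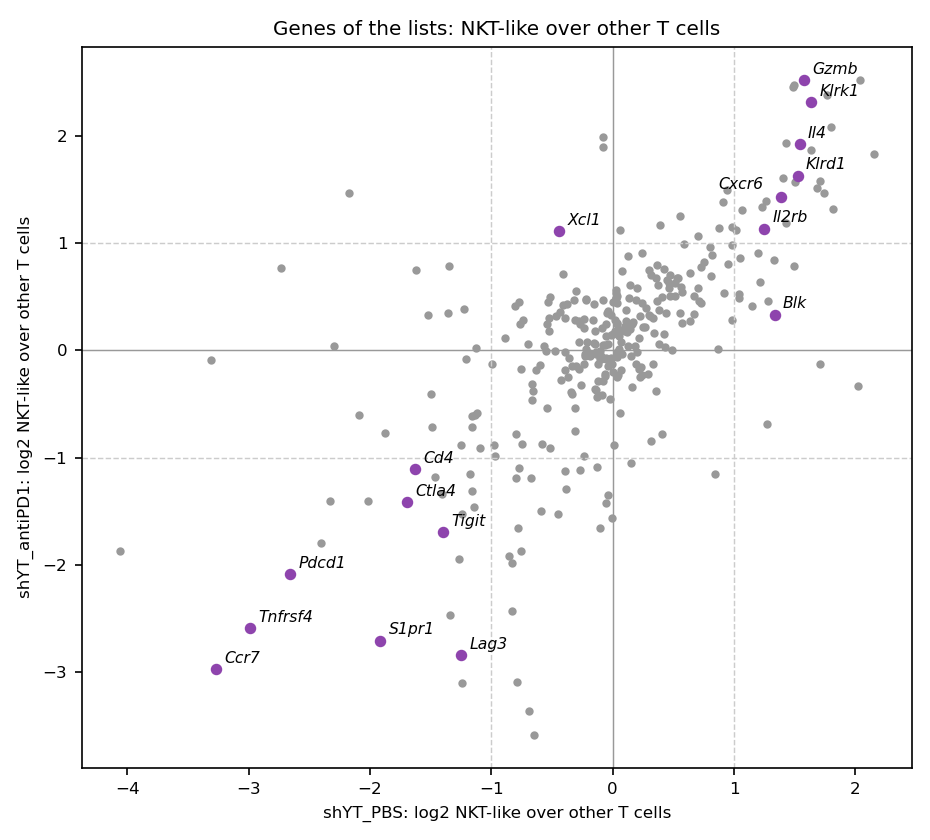
Log2 ratio of members over other T cells for genes of the lists, in the PBS library (horizontal axis) and the anti–PD-1 library (vertical axis), where each point is 1 gene. Klrk1 and Gzmb lie in the upper right and Ccr7, Tnfrsf4 and Pdcd1 in the lower left.

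Between the libraries, genes induced by the T cell receptor and the feedback genes of NF-kB stood higher in the anti–PD-1 members. Levels were compared as the log2 of the anti–PD-1 level divided by the PBS level, 5 CPM having been added to both, in genes with at least 30 UMIs over both libraries. Of 6390 such genes 281 (4.4%) were at least 2-fold higher and 276 (4.32%) at least 2-fold lower, with a median of −0.10. Scaling by the median ratio of genes, which moved the median by 0.10, gave 333 and 209 and a median of 0.00. Neutrophil RNA moved with the comparison. The 6 neutrophil markers summed to 681 CPM in PBS members and 8419 CPM in anti–PD-1 members, 23.3% and 80.7% of members had an S100a8 or S100a9 UMI (S100a8 was at 346 and 4754 CPM, log2 ratio 3.76), and 4 (1.37%) and 29 (20.7%) members had UMIs of 3 or more of the 6. Those few members held 79.8% and 95% of the neutrophil marker UMIs. In other T cells the median log2 ratio of these markers was 2.17, and 4.00% and 20.3% of the cells passed the same mark. The main results are therefore also given without the members that had 3 or more neutrophil markers (288 and 111 cells left), where 153 of 6014 genes were at least 2-fold higher and 296 lower, and the part of neutrophil RNA in the remainder was not tested. Macrophage markers, a list of 9, summed to 3497 and 3912 CPM in the members, with 402 of the 1351 Lyz2 UMIs of the PBS library in 1 cell, and C1qa at 0 by the gate. Of 7 with enough UMIs 3 were at least 2-fold higher and 0 lower. Members with UMIs of 4 or more macrophage markers were 15.8% and 37.9%.

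Of 24 early genes of T cell receptor signaling 21 had enough UMIs, and 13 were at least 2-fold higher and 0 lower in the anti–PD-1 members, against 4.4% of all genes, with a median log2 ratio of 1.21. Without the neutrophil-rich members 12 of 21 were at least 2-fold higher, with a median of 1.10, while leaving out every member with an S100a8 or S100a9 UMI (224 and 27 cells left) gave 7 of 18 higher, 1 lower and a median of 0.55. With each cell thinned to 1000 UMIs the median was 0.45. The median was 0.81 in other T cells, 1.08 in CD8 T cells and 1.17 in NK lineage cells. In the members with Y-linked and no Xist UMIs it was 0.97. Nr4a1 (Nur77), an orphan nuclear receptor induced by receptor engagement, was at 84.2 CPM in the PBS members and 615 CPM in the anti–PD-1 members, a log2 ratio of 2.80 (2.45 to 3.16), and 2.34 without the neutrophil-rich members. A Nr4a1 UMI was found in 14.7% and 57.1% of members, in 17.2% and 55.4% of other T cells and in 29.1% and 76.7% of neutrophils. The gap between the libraries was thus not particular to the members, and within Y-linked cells the log2 ratio was 1.91. Nr4a3, a related receptor, was at 31.9 and 185 CPM (2.37, and 2.38 without the neutrophil-rich members). Dusp5, a phosphatase that limits ERK, was at 86.5 and 501 CPM (2.47, and 2.58 without them). Fosl2, an AP-1 factor, was at 36.4 and 270 CPM (2.73, and 2.51 without them). Crem, a cAMP-responsive factor, was at 84.2 and 347 CPM (1.98, and 2.15 without them).

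Other early genes lay closer together between the libraries. Fos was at 310 and 633 CPM, a log2 ratio of 1.02 that became 0.11 without the neutrophil-rich members. Jun stood at 388 and 434 CPM (0.16), and Dusp2, a nuclear phosphatase, at 520 and 418 CPM (−0.31). Junb was at 1407 and 3263 CPM (1.21, and 1.10 without them), and Dusp1 at 571 and 1178 CPM (1.04, and 0.75 without them). Over single cells, the summed UMIs of the early genes per 10000 UMIs had a median of 47.2 in PBS members (quartiles 29.2 and 73.0, from 0 to 185) and 102.9 in anti–PD-1 members (quartiles 77.5 and 132.6, from 35.0 to 259). The lower quartile of the anti–PD-1 members lay above the upper quartile of the PBS members, although the ranges overlapped. These quartiles describe cells of 1 library per group, at full depth and with the neutrophil-rich members included.

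Of 14 NF-kB feedback genes, which NF-kB induces and most of which restrain it, 8 were at least 2-fold higher and 0 lower, with a median of 1.08 (6 of 14 and 0.96 without the neutrophil-rich members, and 1.59 in Y-linked cells). Without the members with 4 or more macrophage markers 5 of 13 were at least 2-fold higher, with a median of 0.61. The median was 0.51 in other T cells, 0.68 in CD8 T cells and 1.50 in NK lineage cells. Tnfaip3 (A20), a ubiquitin-editing inhibitor, was at 147 and 848 CPM, a log2 ratio of 2.49 that was 2.53 without the neutrophil-rich members and 2.78 in Y-linked cells. Nfkbia (IκBα), which holds NF-kB in the cytoplasm, was at 530 and 1466 CPM, a log2 ratio of 1.46 (1.29 to 1.63), and 1.22 without them. Nfkbiz was at 70.6 and 262 CPM (1.82, and 1.49 without them), while Nfkb1, a subunit itself, had a log2 ratio of −0.04 (0.70 in Y-linked cells). Summed over the list, the median cell had 12.5 and 29.0 UMIs of these genes per 10000.

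**Figure D4:**
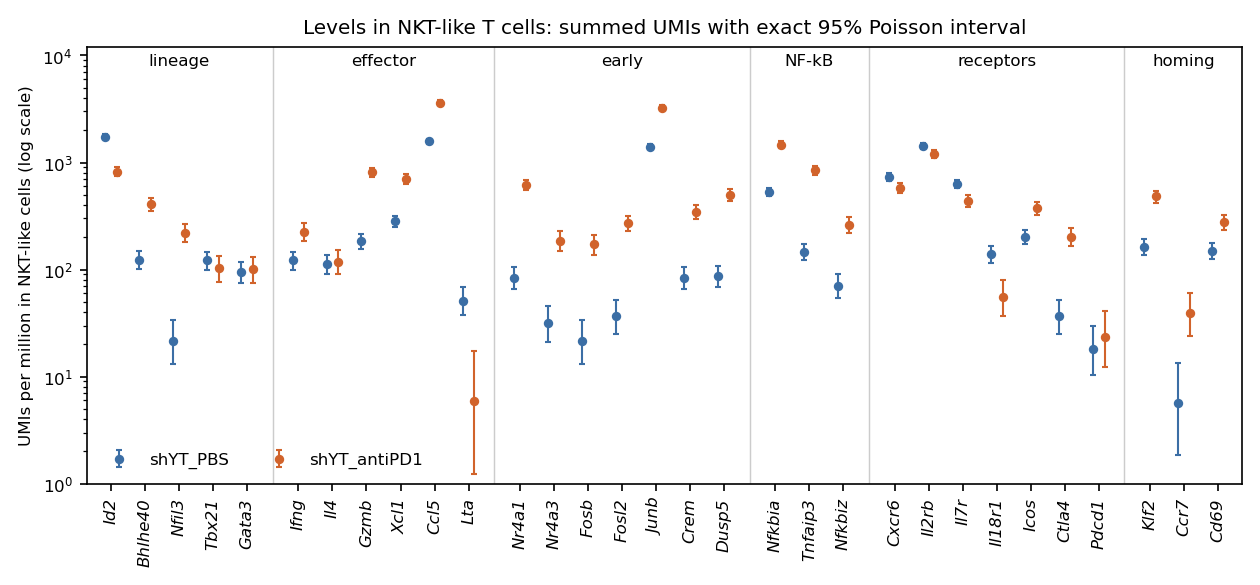
Levels in the members in CPM (vertical axis, logarithmic, exact 95% Poisson intervals) for genes grouped by role, in the PBS and the anti–PD-1 library. Nr4a1 (84.2 and 615) and Tnfaip3 (147 and 848) lie higher in the anti–PD-1 library, and Id2 (1738 and 819) lies lower.

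The promoters of 3 of these genes are shown because their genes stood higher together and each holds a different motif of the factors named above. They run from 250 bases before to 50 bases after the RefSeq start site, 5′ to 3′ on the strand of the gene (GRCm38.p6), with capitals for the motif. Both strands were searched for the cAMP response element TGACGTCA, the AP-1 element TGACTCA and the NF-kB element that starts with GGGA, ends with TTTCC and has 1 free letter between them. Each promoter shown held 1 match to 1 of the 3, so no matches overlapped there. Other forms of these elements were not searched for, so lower case does not show that they are absent. The elements were found, in this order, in 1.79%, 5.20% and 0.411% of 32851 mouse promoters of this length. Among the early genes at least 2-fold higher, 1 of 12 promoters held the first and 0 of 12 either of the others, and among the NF-kB feedback genes at least 2-fold higher 1 of 10, 2 of 10 and 1 of 10 promoters of 7 genes held them. Over all NF-kB feedback genes, whatever their ratio, these were 1, 2 and 3 of 16 promoters of 11 genes.
Dusp1, chr17:26508423-26508722, minus strand: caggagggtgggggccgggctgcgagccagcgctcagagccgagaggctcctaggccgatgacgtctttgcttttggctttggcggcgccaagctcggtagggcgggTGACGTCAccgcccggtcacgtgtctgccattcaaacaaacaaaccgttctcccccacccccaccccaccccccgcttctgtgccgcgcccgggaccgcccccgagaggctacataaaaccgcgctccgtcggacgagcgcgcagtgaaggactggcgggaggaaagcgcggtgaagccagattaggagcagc
Nfkbia, chr12:55492598-55492897, minus strand: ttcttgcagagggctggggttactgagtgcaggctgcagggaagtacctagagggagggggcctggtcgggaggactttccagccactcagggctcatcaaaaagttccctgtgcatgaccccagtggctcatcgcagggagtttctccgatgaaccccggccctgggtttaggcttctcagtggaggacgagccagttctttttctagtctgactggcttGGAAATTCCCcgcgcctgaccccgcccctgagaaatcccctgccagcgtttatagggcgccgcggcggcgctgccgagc
Tnfaip3, chr10:19015361-19015660, minus strand: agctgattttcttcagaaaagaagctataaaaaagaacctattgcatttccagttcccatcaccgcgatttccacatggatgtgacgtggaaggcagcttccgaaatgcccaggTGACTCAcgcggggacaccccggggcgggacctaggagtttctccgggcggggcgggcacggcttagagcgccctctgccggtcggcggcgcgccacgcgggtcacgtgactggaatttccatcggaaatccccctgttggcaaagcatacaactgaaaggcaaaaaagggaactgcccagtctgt

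Among type 1 effector genes Gzmb, Xcl1 and Ccl5 were at least 2-fold higher in the anti–PD-1 members, while the median of the list stood at a smaller ratio. Over the 14 type 1 genes, 8 had a log2 ratio above 0 and 6 below it, 0 were at least 2-fold lower, and the median was 0.16 (−0.02 in Y-linked cells, and 0.37 with 4 of 14 at least 2-fold higher without the neutrophil-rich members). Gzmb was at 183 CPM in PBS members and 813 CPM in anti–PD-1 members, a log2 ratio of 2.12 (1.86 to 2.38), 2.21 without the neutrophil-rich members, 1.95 in Y-linked cells and 1.17 in other T cells, with a UMI in 22.6% and 42.1% of members. Xcl1, a chemokine for cross-presenting dendritic cells, was at 282 and 698 CPM (1.29, 1.06 to 1.53), 1.55 without the neutrophil-rich members, 0.83 in Y-linked cells and −0.26 in other T cells. Ifng was at 122 and 225 CPM (0.86, 0.48 to 1.24), 1.08 without the neutrophil-rich members, but 0.13 in Y-linked cells. The log2 ratio of Il4, at 113 and 118 CPM, was 0.07 (−0.39 to 0.52), an interval that leaves room for change in either direction. Among 10 cytotoxic genes 2 were at least 2-fold higher (median 0.32), Gzmb and Srgn, the granule proteoglycan (1.15, but 0.72 without the neutrophil-rich members, where 1 of 10 was). In Y-linked cells the cytotoxic median was 1.01, with Prf1 at 2.27 and Gzma at 2.35, against −0.15 and 0.53 over all members. NK cell markers, a list of 9 of which Ncr1 and Klre1 were at 0 by the gate, summed to 608 and 1258 CPM. The 3 with enough UMIs, Gzma, Fcer1g and Tyrobp, had a median log2 ratio of 0.94 (0.21 without the neutrophil-rich members, 1.25 in Y-linked cells, and 1.18 over 4 such markers in other T cells), and the part of NK cell RNA in the effector ratios was not tested. Among 10 cytokine genes 0 were at least 2-fold higher and 1 lower (median 0.03), which was Lta, with 45 and 3 UMIs (log2 ratio −2.36, −3.26 to −1.26, but −0.06 in Y-linked cells). Il10 had 0 and 16 UMIs, at least 9.24-fold higher in the anti–PD-1 members against a floor of 3 counts in the PBS library, and 7 of the 16 lay in 1 cell.

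Chemokine genes showed the highest median of the T cell lists, and for Ccl3, Ccl4 and Cxcl2 a large part of the anti–PD-1 UMIs lay in 1 cell. Summed over the list, the median cell had 12.4 and 33.0 UMIs per 10000 in all members. All 5 with enough UMIs were at least 2-fold higher (median log2 ratio 3.13, and 1.14 after thinning), and 4 of 4 were without the neutrophil-rich members (median 1.67). Ccl3 was at 13.7 and 209 CPM (3.52, and 0.50 without them), with 92 of its 106 UMIs in the anti–PD-1 library in 1 cell. For Ccl4, at 39.8 and 389 CPM (3.13, and 1.78 without them), 101 of 197 UMIs lay in 1 cell. Cxcl2, a chemokine for neutrophils, was at 11.4 and 740 CPM (5.51, and 3.24 without them), with 167 of 375 UMIs in 1 cell. Ccl5, a chemokine of effector T cells, was at 1585 and 3627 CPM (1.19, and 1.38 without them).

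Among lineage factors, Id2 was lower. Id2, an inhibitor of E proteins that liver NKT cells require, was at 1738 CPM in the PBS and 819 CPM in the anti–PD-1 members, a log2 ratio of −1.08 (−1.24 to −0.93), −0.87 without the neutrophil-rich members, −1.25 in Y-linked cells and −0.53 in other T cells. Bhlhe40, a cofactor for interferon-gamma, was at 124 and 406 CPM (1.67, and 1.90 without them). Tbx21 (T-bet) stood at 122 and 103 CPM (log2 ratio −0.24, but −1.27 in Y-linked cells), and Gata3 at 94.5 and 101 CPM. Of 15 innate-like factors, the gate gene Zbtb16 among them, 2 were at least 2-fold higher and 1 lower, and the median was 0.07. The 2 were Bhlhe40 and Nfil3 (21.6 and 221 CPM, 3.09, and 2.46 without the neutrophil-rich members). The SLAM receptors that support NKT development had a median of 0.11, with 2 of 8 at least 2-fold higher, Slamf1 (log2 ratio 1.47) and Cd244a (1.25, but 0.34 without the neutrophil-rich members).

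Type 17 genes were lower in the anti–PD-1 members, as was the share of Zbtb16-alone cells. The 11 genes summed to 2080 CPM in the PBS and 903 CPM in the anti–PD-1 library in Zbtb16-alone members, to 577 and 527 CPM in Klrb1c-alone members and to 907 and 677 CPM in double members. The anti–PD-1 Zbtb16-alone members were 17 cells, 9 of them with 3 or more neutrophil markers. In the Zbtb16-alone members neutrophil markers summed to 1067 and 24796 CPM and macrophage markers to 2302 and 7837 CPM, and the part of such RNA in the type 17 sums was not tested. Of 6 with enough UMIs 4 were at least 2-fold lower and 0 higher, with a median of −1.15 (−1.20 without the neutrophil-rich members, −1.22 in other T cells, and −0.47 in Y-linked cells). Tmem176b, a membrane protein of the type 17 list, was at 401 and 180 CPM (−1.14, and −0.47 in Y-linked cells), Tmem176a at 305 and 120 CPM (−1.31, and −0.79 in Y-linked cells), Blk at 29.6 and 7.89 CPM (−1.42), and Il23r at 28.5 and 9.86 CPM (−1.17). Blk and Il23r turned when a Klrb1c UMI was required (1.25 and 0.94), as did Blk in Y-linked cells (0.74) and with 2 UMIs of the pair (1.16), and Il23r was 0.058 without the members with an S100a8 or S100a9 UMI. Il17a had 11 and 16 UMIs, under the minimum of 30 over both libraries, and so was not counted above. Its log2 ratio was 1.06, −0.43 without the neutrophil-rich members and 1.59 in Y-linked cells. Among 7 type 2 genes 1 was at least 2-fold higher, Il4ra (66.0 and 178 CPM, 1.36), with a median of 0.55, and Icos had 201 and 373 CPM (0.87).

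Genes of tissue residence and of recirculation were both among those higher. Cxcr6 was at 734 and 578 CPM (log2 ratio −0.34) and Il2rb at 1425 and 1207 CPM (−0.24). Klf2, a factor of recirculating T cells, was at 163 and 481 CPM (1.54, 1.27 without the neutrophil-rich members, and 0.63 in Y-linked cells), and Cxcr4 at 86.5 and 280 CPM (1.64). Cd69, which retains T cells in tissue, was at 149 and 276 CPM (0.87, and 0.38 in Y-linked cells), and Rgs1 at 422 and 892 CPM (1.07, and 0.54 in Y-linked cells). Of 13 genes of residency and homing 5 were at least 2-fold higher and 1 lower, with a median of 0.78 (0.33 without the neutrophil-rich members, and 0.38 in Y-linked cells). Il18r1, the IL-18 receptor, was at 139 and 55.2 CPM (−1.26, −1.84 to −0.70), −1.67 without them, but 1.06 in Y-linked cells, and Il7r at 625 and 436 CPM (−0.51).

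NK receptor genes as a group stood near the median of all genes. Of 15 with enough UMIs, the gate gene Klrb1c among them, 2 were at least 2-fold higher, with a median of 0.19. The 2 were Tyrobp (1.23, but 0.05 without the neutrophil-rich members) and Klra7 (1.35), of a family of similar genes. Klra5 had 22 and 0 UMIs, at least 4.23-fold lower against the floor of 3 counts, with 6 of the 22 in 1 cell. Of 9 checkpoint genes 1 was at least 2-fold higher, Ctla4 (36.4 and 203 CPM, 2.33, and 2.48 without the neutrophil-rich members, 2.05 in other T cells), with a median of 0.35. Pdcd1 was at 18.2 and 23.7 CPM (0.30), levels that are not read as expression, as stated above.

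Interferon response genes were mostly above 0 by less than 2-fold, and cycling genes were lower in the anti–PD-1 members, which rested on a few PBS cells. All 18 interferon genes with enough UMIs had a log2 ratio above 0, against 40.6% of all genes, 4 were at least 2-fold higher, and the median was 0.54 (1 of 17 and 0.44 without the neutrophil-rich members, 0.87 in other T cells). Gbp2, a guanylate-binding protein, was at 44.4 and 162 CPM (1.76, and 0.99 without them), and Isg15 at 58.0 and 197 CPM (1.68, and 1.27 without them). Of 9 cycling genes 0 were higher and 5 at least 2-fold lower, with a median of −1.08. Mki67 had 75 and 7 UMIs (−2.26) and Ube2c 27 and 0, at least 5.19-fold lower against the floor. In the PBS library most cycling UMIs, with the widely expressed Hmgb2 and Tuba1b left out, lay in few cells: 10 members (3.42%) with UMIs of 5 or more cycling genes held 314 of 435, against 11 of 78 in 2 such members (1.43%) of the anti–PD-1 library. Without these members the median was 0.21, after thinning to 1000 UMIs it was 0.77, in Y-linked cells −0.53 (Mki67 −2.75), and in other T cells 0.05. Heat shock genes had a median of 0.41, with Hspa1a (170 and 525 CPM, 1.60, and 0.79 in Y-linked cells) and its near copy Hspa1b (178 and 412 CPM, 1.19) at least 2-fold higher of 12. MHC class I genes had a median of 0.24 and glycolysis genes one of 0.11. The 14 genes of the T cell receptor complex had one of −0.03, which is a description, since the 5 T cell genes of the gate are among them.

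**Figure D5:**
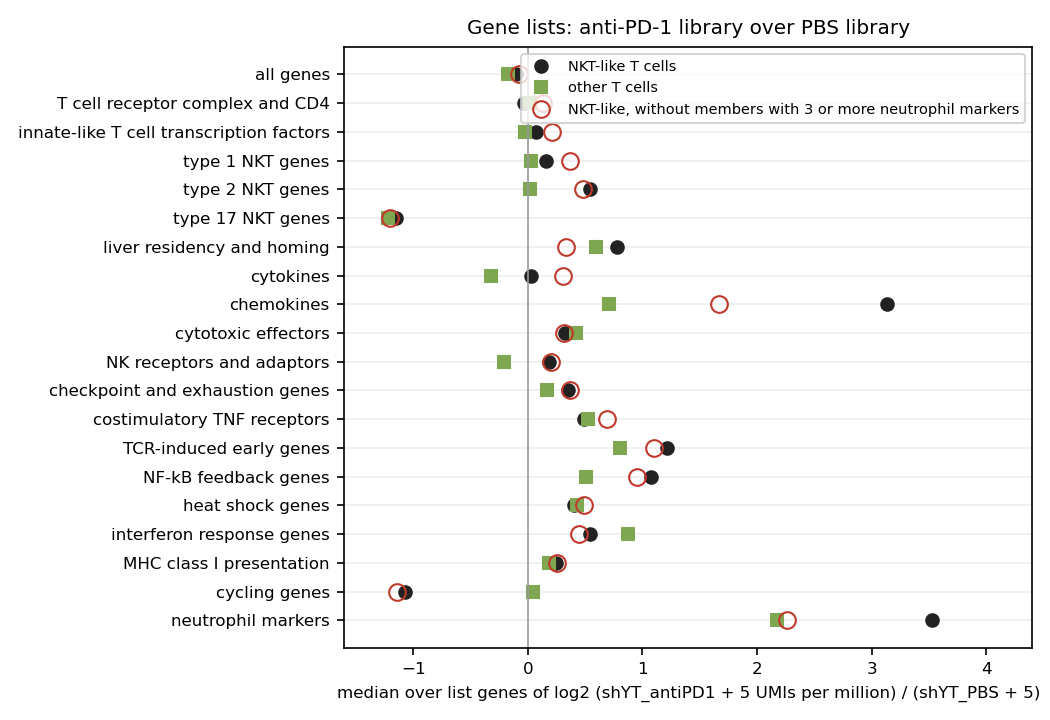
Median log2 ratio of anti–PD-1 over PBS (horizontal axis) for each gene list, in all members, in members without 3 or more neutrophil markers, and in other T cells. The early genes (1.21, 1.10 and 0.81) and NF-kB feedback genes (1.08, 0.96 and 0.51) stay above 0 in all 3 sets, and the type 17 genes (−1.15, −1.20 and −1.22) below it.

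Ranked over genes with at least 100 UMIs, the 15 highest ratios in all members were mostly genes of neutrophils and monocytes, such as Cxcl2, Il1b, G0s2, Retnlg and S100a8. Without the neutrophil-rich members the highest was Vps37b, an endosomal sorting subunit, with 134 UMIs in the PBS and 496 in the anti–PD-1 members (log2 ratio 3.07), followed by S100a9 (2.74), Dusp5, Tnfaip3, Fosl2 and Ctla4, by Serpinb9, the inhibitor of granzyme B (2.43), and by Nr4a1, Gzmb and Crem. P2ry10 (2.07), Mxd1 (1.97), Neurl3 (1.96), Bhlhe40 and Spty2d1 (1.81) completed the 15. At the low end stood Sparc, a matrix protein (−2.72), Ramp1, the CGRP receptor subunit (−2.71), and Anxa1 (−2.30), of which 144 of 244 UMIs in the PBS library lay in 1 cell. Slpi (−1.97), with 305 of its 340 PBS UMIs in 1 cell, Cmss1 (−1.86) and Il18r1 (−1.67) followed. A list of 6 stromal and endothelial markers, which does not hold Sparc, had 210 and 36 UMIs in all members, with 4 of 4 log2 ratios below 0 (median −1.31, and −0.89 in other T cells), and in the PBS library 154 of the 210 lay in the Zbtb16-alone members (591 CPM). The tumor and biliary markers had 1599 and 597 UMIs (median −0.61), and the part of such RNA in the low ratios was not tested. Ramp1 was at 254 and 67.1 CPM over all members (−1.84), with 14 of 223 UMIs in its highest PBS cell. In Y-linked cells the log2 ratio was −0.69 for Ramp1 and −0.87 for Anxa1.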

How the data were processed

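Single-cell libraries of tumor-bearing liver, 1 per group, were made with the Singleron GEXSCOPE kit. The authors deposited raw counts (UMIs per gene and barcode), made with the Singleron software against mm10. Seurat 4.3 is named in the submitters' processing notes. Annotation and strand handling are not given in the sources used here, so counts of overlapping genes and of near-identical copies are uncertain. Both matrices list 32589 genes.

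Cells were gated as stated, UMIs were summed over the members of a library (878640 and 506963 UMIs) and scaled to CPM, and ratios were taken on the log2 scale after adding 5 CPM, over genes with 30 or more UMIs. With 1 library per group no test was run. Share differences have Newcombe intervals, ratios intervals built from 2 Poisson intervals. Members, gene lists and the naming rule were chosen with earlier results of these data known. Named genes were those of the lists with most UMIs or extreme ratios, the 15 highest and 15 lowest ratios with 100 or more UMIs, and the 15 genes highest over other T cells. Genes at the low end of that comparison and in single cells were named after their values were seen. Thinning drew 1000 UMIs per cell. scanpy 1.11.5 (Scrublet) set no usable doublet threshold (0 cells marked), so no doublets were removed. Leaving out the 5% of cells with the highest scores was an alternative. The code was tested on simulated data. Python 3.11.15, numpy 2.4.6, scipy 1.17.1 and pandas 2.3.3 were used. Results on certain genes are not reported here.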

Additional observations from a re-analysis of the deposited data

Results flagged for a closer look

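Of 273 genes of the lists, 8 had intervals on opposite sides of 0 in the members and in the other T cells of the same 2 libraries. The same count over all genes was not made, and the lists were chosen with earlier results known, so the 8 are a description. The difference was not tested, since each group is 1 library. Xcl1 stood at a log2 ratio of anti–PD-1 over PBS of 1.29 in members and −0.26 in other T cells, and Id3, an E protein inhibitor, at 0.85 and −0.29. Ikzf2 (Helios) was at 0.95 and −0.54, Tnfrsf18 (GITR) at 0.62 and −0.17, and the NK receptor gene Klra7 at 1.35 and −0.72. Satb1, a chromatin organizer of T cells, lay the other way, at −0.49 in members and 0.36 in other T cells. The receptor constant genes Trbc1 (−0.25 and 0.23) and Trgc2 (0.35 and −0.64) also had opposite signs, and both have similar copies among which counts may be split.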

How the results depend on the processing

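No paired analysis was possible because each group is 1 library, and for the same reason no library could be left out. The share difference between the libraries stayed negative in all settings run, from −8.60 to −1.69 points. It was −2.20 (3.03% and 0.834%) with a Zbtb16 UMI required, −2.63 (5.19% in the PBS library, 173 genes at least 2-fold lower) with a Klrb1c UMI required, −1.69 (3.11% and 1.42%, 148 genes higher and 144 lower) with 2 or more UMIs of the pair, −3.19 (6.37% in the PBS library, 76 higher and 76 lower) after thinning, and −8.60 (11.4% in the PBS library, 84 lower) in cells with Y-linked and no Xist UMIs. The cause of these moves was not tested. Adding 20 CPM left 75 genes at least 2-fold lower, a minimum of 100 UMIs left 121 higher and 24 lower, a minimum of 1 UMI gave 644 and 991, and no upper limit on detected genes gave 431 lower. Chosen after seeing the data, leaving out members with 3 or more neutrophil markers gave 153 higher and a share of 2.32% in the anti–PD-1 library, leaving out members with an S100a8 or S100a9 UMI (224 and 27 cells left) 169 higher and 580 lower, leaving out members with 4 or more macrophage markers 167 higher, and a gate without C1qa and Cd79a shares of 10.5% and 5.57%.

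Of 668 list medians under the alternatives 613 kept their sign, as did 1700 of 1761 ratios of named genes. Apart from those that turned, 74 medians and 364 ratios lay outside their interval as reported. Among the ratios these were 53 of 97 in Y-linked cells, 49 of 98 after thinning and 49 of 96 without S100a8 or S100a9 members. The early gene median ran from 0.45 (thinned) to 1.32 (scaled by the median ratio) and the NF-kB median from 0.61 (without macrophage-rich members) to 1.59 (Y-linked cells). Of those at least 2-fold in either direction as reported, 3 medians and 16 ratios turned, for the stromal median (0.079 with no upper gene limit), for Il23r (0.94) and Blk (1.25) with a Klrb1c UMI required, for Blk (1.16) and Fos (−0.016) with 2 UMIs of the pair, for the cycling median (0.77), Il17a (−2.35), Tyrobp (−0.28), Mki67 (0.22) and Ube2c (1.47) after thinning, for Blk (0.74) and Il18r1 (1.06) in Y-linked cells, for Il17a (−0.43) without neutrophil-rich members, for Il23r (0.058), Ccl3 (−0.33), Tyrobp (−0.44) and Top2a (1.09) without S100a8 or S100a9 members, and for the cycling median (0.21) and Top2a (0.64) without cycling-rich members. Depth limits genes under about 30 UMIs. Why Traj18 had 0 UMIs in the members was not tested.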

Other observations

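Members with the highest doublet scores were 7 (2.40%) in the PBS and 15 (10.7%) in the anti–PD-1 library, against 2.85% and 4.44% of other T cells. Members admitted by Zbtb16 alone in the anti–PD-1 library included 9 of 17 with 3 or more neutrophil markers, against 17 of 100 admitted by Klrb1c alone and 3 of 23 with both genes. Members with UMIs of 4 or more macrophage markers were 15.8% and 37.9%. The part of these cells in the ratios was not tested beyond the alternatives given above.

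Survival genes had a median log2 ratio of 0.39 in the members, with 2 of 13 at least 2-fold higher, Gadd45b (106 and 331 CPM, 1.60) and Pmaip1 (13.7 and 55.2 CPM, 1.69), while Mcl1 was at 314 and 594 CPM (0.91, and 0.31 without the members with 3 or more neutrophil markers). Pim1, a kinase induced by STAT5, was at 164 and 444 CPM (1.41, and 0.72 without those members), and Cish, a STAT5 feedback inhibitor, at 158 and 80.9 CPM (−0.93), so these genes of cytokine signaling lay on opposite sides of 0. Gsn had 148 of its 177 PBS UMIs in 1 cell.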
